A study of Chlorocebus sabaeus with 32 samples.

Results

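The genes described here mark the mural cells of brain vessels. They are 5 genes used as markers of pericytes (PDGFRB, RGS5, NOTCH3, KCNJ8 and ABCC9) and 3 used as markers of vascular smooth muscle (ACTA2, TAGLN and MYH11). They were chosen by symbol, with earlier results of these data known. All 8 had a row among the 33994 gene rows of the count table. RNA was sequenced from the hippocampus of vervet monkeys (Chlorocebus sabaeus), an African green monkey, in 32 libraries that the labels place under 1 year of age. The labels give no treatment, genotype, sex or exact age, so nothing but the library title separates the samples. The first 4 digits of the title put 16 libraries in a group here called prefix2010, 14 in prefix2009 and 2 in prefix2011, and the labels do not say what these digits stand for. A second number in the title was at least 20000 in 9 libraries of prefix2010 and below 20000 in the other 7. All 14 libraries of prefix2009 had a number below 20000. The labels do not state that each library came from a separate animal, so p-values measure the spread between libraries.

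Pericytes are embedded in the basement membrane of capillaries and contact endothelial cells directly, while smooth muscle cells wrap arteries and arterioles in contractile layers. Endothelial cells release PDGF-B, which acts on the receptor PDGFRB and recruits pericytes to growing vessels. NOTCH3 is a receptor of mural cells that responds to ligands on neighbouring cells, and its mutation in humans causes CADASIL, an inherited disease of small arteries. KCNJ8 and ABCC9 encode the pore (Kir6.1) and the regulatory subunit (SUR2) of the vascular ATP-sensitive potassium channel. RGS5 dampens signalling by G-protein-coupled receptors. ACTA2, TAGLN and MYH11 encode smooth muscle actin, the actin-binding protein transgelin and smooth muscle myosin heavy chain, and belong to the contractile apparatus. Several of these genes are also expressed by other cells: smooth muscle cells carry PDGFRB and NOTCH3, and fibroblasts of the meninges carry PDGFRB.

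Each library held between 9347635 and 19673621 counts in genes (median 16201657). The shallowest library, prefix2009 replicate 1, also had the largest share of reads in no gene feature, 67.1%, against a mean of 57.0% ± 3.61 (SD, n = 32) over all libraries. Values are given as CPM, counts relative to the scaled library size, and are not divided by gene length, so levels are compared between libraries and not between genes. All 8 genes were detected in every library, with raw counts from 38 for KCNJ8 to 2523 for RGS5. Markers of hippocampal neurons were present throughout: the 8 genes of that list summed to between 1650 and 4033 CPM per library, and none was at 0 in all libraries.

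Libraries of prefix2010 were set against those of prefix2009. The pericyte genes PDGFRB, NOTCH3 and ABCC9 rose in prefix2010, while RGS5, KCNJ8 and the 3 smooth muscle genes did not pass the test. All 8 genes passed the filter on low counts. Counts were tested by quasi-likelihood in edgeR and p-values adjusted over all genes by the method of Benjamini and Hochberg. Of the genes tested, 23977 in all, 12.5% were called at an adjusted p under 0.05, with 7.11% higher and 5.35% lower. The 3 calls among the 8 members cannot test for an excess over this share, because the members were chosen with earlier results known. The same holds for the counts of calls in the gene lists. When library totals replaced the scaling factors, 2310 genes were higher and 985 lower, against 1705 higher and 1282 lower in the scaled data. In bulk tissue, fewer cells of a type and less RNA per cell cannot be told apart.

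PDGFRB, the receptor that keeps pericytes at the vessel wall, had a lowest level of 41.6, a median of 51.9 and a highest level of 74.3 CPM in prefix2010, against 34.3, 40.4 and 54.8 CPM in prefix2009. Every library of prefix2010 lay above the median of prefix2009, and 6 of the 16 lay above its highest library, so the groups overlapped in part. The mean was 54.8 ± 8.77 CPM in prefix2010 and 42.6 ± 6.77 CPM in prefix2009 (SD, n = 16 and n = 14). The log2 difference was 0.37 ± 0.08 (SE; edgeR adjusted p = 0.00375), a 1.29-fold higher level with a 95% interval of 0.21 to 0.53 on the log2 scale. The reference gene table lists CDX1 as overlapping PDGFRB, and the CDX1 row averaged 0.289 CPM.

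NOTCH3 had a lowest level of 53.1, a median of 62.3 and a highest level of 77.2 CPM in prefix2010, against 35.05, 53.0 and 62.3 CPM in prefix2009. Of the 16 libraries of prefix2010, 8 lay above the highest of prefix2009, and 7 of the 14 libraries of prefix2009 lay below the lowest of prefix2010. NOTCH3 averaged 64.0 ± 7.67 CPM in prefix2010 and 51.6 ± 9.30 CPM in prefix2009 (SD, n = 16 and n = 14). Its log2 difference was 0.32 ± 0.08 (edgeR adjusted p = 0.00851). With the endothelial level of each library as a covariate it was 0.24 (edgeR adjusted p = 0.0715) and no longer passed.

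ABCC9, the regulatory subunit of the channel, moved most among the 8. Its level was lowest at 20.6, in the middle at 32.6 and highest at 45.6 CPM in prefix2010, against 13.2, 21.1 and 29.6 CPM in prefix2009. In prefix2010, 11 of 16 libraries exceeded the highest library of prefix2009. The mean was 32.8 ± 7.69 CPM in prefix2010 and 21.3 ± 4.97 CPM in prefix2009 (SD, n = 16 and n = 14), and the log2 difference was 0.63 ± 0.12 (edgeR adjusted p = 0.00140), or 1.54-fold. KCNJ8, the pore subunit and the neighbour of ABCC9 in the reference gene table, had a lowest level of 3.19, a median of 4.74 and a highest level of 6.07 CPM in prefix2010, against 2.55, 3.60 and 6.18 CPM in prefix2009. The 2 groups overlapped over most of their range, although 13 of 16 libraries of prefix2010 lay above the median of prefix2009. The log2 difference of KCNJ8 was 0.24 ± 0.11 (edgeR adjusted p = 0.139), with a 95% interval, not adjusted over genes, of 0.03 to 0.45. Without prefix2009 replicate 12 it was 0.31 (edgeR adjusted p = 0.0378) and passed.

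RGS5 overlapped between the prefixes. It had a lowest level of 84.3, a median of 119 and a highest level of 158 CPM in prefix2010, against 92.3, 115 and 205 CPM in prefix2009. The highest value of all, 205 CPM, belonged to prefix2009 replicate 1, the shallowest library. The log2 difference was -0.05 ± 0.10 (edgeR adjusted p = 0.819), with a 95% interval of -0.25 to 0.15. Without that library it was 0.03 (edgeR adjusted p = 0.848).

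None of the 3 contractile genes passed the test between the prefixes. ACTA2 had a lowest level of 9.34, a median of 12.5 and a highest level of 24.7 CPM in prefix2010, against 7.90, 11.1 and 25.7 CPM in prefix2009. MYH11 had a lowest level of 2.84, a median of 4.64 and a highest level of 13.8 CPM in prefix2010, against 2.99, 4.39 and 13.5 CPM in prefix2009. TAGLN was lowest at 10.5, in the middle at 15.5 and highest at 23.01 CPM in prefix2010, against 14.6, 16.8 and 21.3 CPM in prefix2009. TAGLN was thus spread more widely in prefix2010, where 6 of 16 libraries lay below the lowest of prefix2009 and 2 above its highest. The log2 differences were 0.18 ± 0.15 for ACTA2, 0.02 ± 0.24 for MYH11 and -0.12 ± 0.09 for TAGLN (edgeR adjusted p = 0.457, 0.976 and 0.389). None of the 3 had an unadjusted p under 0.05 in edgeR, and DESeq2 called 0 of the 3. The 95% intervals reached from -0.11 to 0.48 for ACTA2, from -0.45 to 0.48 for MYH11 and from -0.29 to 0.05 for TAGLN, so a change of the size seen in PDGFRB lies outside the interval of TAGLN but inside those of ACTA2 and MYH11. The differences between pericyte and smooth muscle genes were not themselves tested.

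**Figure D1:**
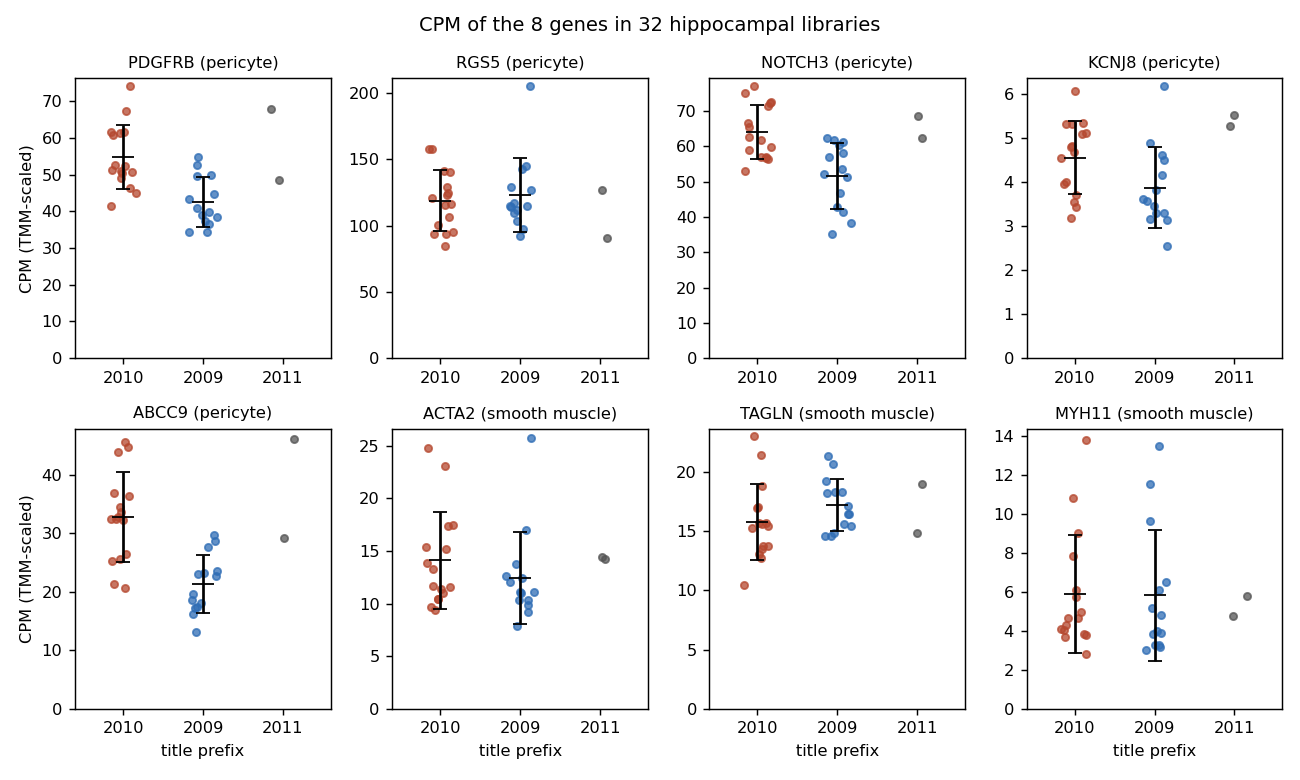
Level of each of the 8 genes in CPM, one point per library, for prefix2010 (16), prefix2009 (14) and prefix2011 (2); each panel has its own axis. PDGFRB, NOTCH3 and ABCC9 lie higher in prefix2010, while RGS5 and the contractile genes overlap, and a few libraries carry the highest ACTA2 and MYH11 values in both prefixes.

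The 2 libraries of prefix2011 were too few for a comparison. Their values were 48.7 and 68.0 CPM for PDGFRB, 62.2 and 68.6 CPM for NOTCH3 and 29.2 and 46.1 CPM for ABCC9. For these 3 genes all 6 values lay above the median of prefix2009. RGS5 had 90.8 and 127 CPM, KCNJ8 5.53 and 5.28 CPM, ACTA2 14.4 and 14.2 CPM, TAGLN 14.9 and 19.03 CPM, and MYH11 4.76 and 5.80 CPM.

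**Figure D2:**
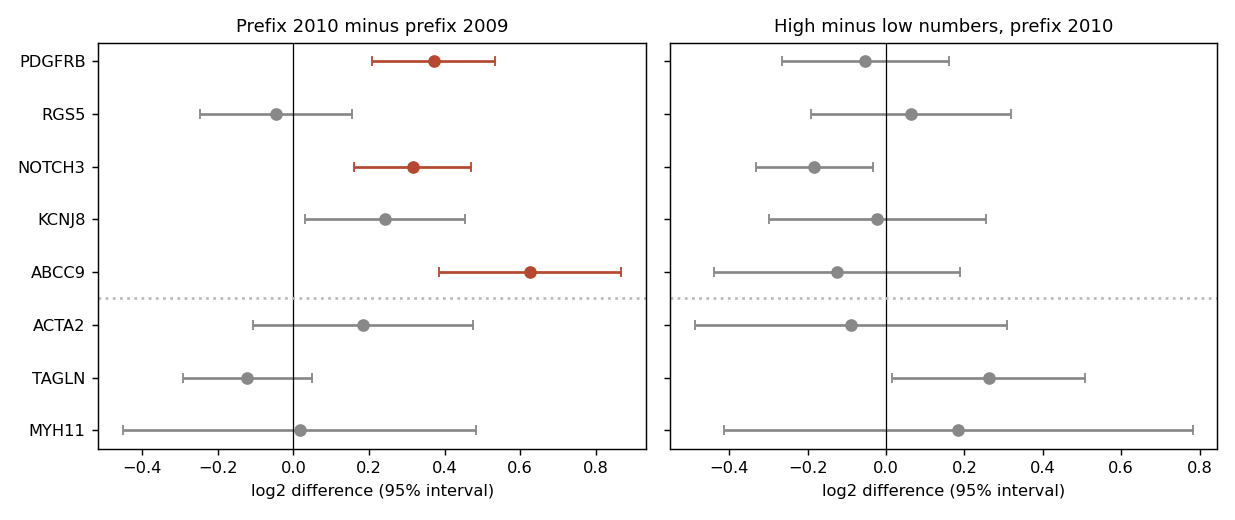
Log2 difference of each gene with its 95% interval, for prefix2010 minus prefix2009 and for high minus low title numbers within prefix2010. In the first comparison the intervals of PDGFRB (0.37), NOTCH3 (0.32) and ABCC9 (0.63) lie above 0 with an adjusted p under 0.05. The intervals are not adjusted over genes. That of KCNJ8 also lies above 0, and in the second comparison those of NOTCH3 and TAGLN exclude 0, without an adjusted p under 0.05.

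The second title number was compared within prefix2010, where 9 libraries had a high number and 7 a low one. None of the 8 genes passed, and of the 21488 genes tested edgeR called 0, which is 0%, while 3023 had an unadjusted p under 0.05 and DESeq2 called 194. NOTCH3 and TAGLN had the smallest p among the members. NOTCH3 averaged 60.6 ± 5.85 CPM in the 9 libraries with high numbers and 68.4 ± 7.84 CPM in the 7 with low numbers, a log2 difference of -0.18 ± 0.08 (edgeR adjusted p = 0.290). TAGLN averaged 17.04 ± 3.43 CPM with high numbers and 14.1 ± 2.14 CPM with low numbers, a log2 difference of 0.26 ± 0.13 (edgeR adjusted p = 0.357). The other 6 genes differed by -0.13 to 0.18. When the prefixes were compared over low numbers only, PDGFRB had a log2 difference of 0.40, NOTCH3 of 0.41 and ABCC9 of 0.69 (edgeR adjusted p = 0.0154, 0.0285 and 0.00676), so these 3 calls were also made where the number sets matched.

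Other pericyte genes gave 1 higher call and 0 lower among the 15 of the list that passed the filter, a share near the 7.11% of all genes called higher. MCAM, an adhesion molecule of mural and endothelial cells, averaged 55.2 CPM in prefix2010 and 43.8 CPM in prefix2009 (log2 difference 0.34 ± 0.11, edgeR adjusted p = 0.0433). S1PR3, CSPG4 (the proteoglycan NG2) and ENPEP had log2 differences of 0.32, 0.32 and 0.48 that missed the threshold (edgeR adjusted p = 0.0560, 0.0566 and 0.0881). Of the 15 genes 11 had a positive and 4 a negative difference. The 4 were GJA4, NDUFA4L2, VTN and ATP13A5, with log2 differences of -0.32, -0.28, -0.21 and -0.20 that did not pass either (edgeR adjusted p = 0.117, 0.325, 0.295 and 0.290). COX4I2 did not pass the filter. The median log2 difference over the 15 genes was 0.24, against 0.0054 over all genes tested. The count of calls depended on the setting: it was 0 with the endothelial covariate, 2 over low numbers only, 2 without prefix2009 replicate 1, and 3 with DESeq2 or with library totals. Fewer of all genes were called with the covariate or over low numbers, and more with library totals. These counts are thus not a trait of the pericyte list alone.

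The median log2 difference of the wider contractile list was 0.02. It gave 3 higher calls among 14 genes, against 7.11% of all genes called higher. They were SMTN (smoothelin), TPM2 (a tropomyosin) and CALD1 (caldesmon), with log2 differences of 0.25 ± 0.07, 0.25 ± 0.07 and 0.20 ± 0.06 (edgeR adjusted p = 0.0141, 0.0142 and 0.0220). TPM2 and CALD1 are also expressed outside smooth muscle. MYOCD, the coactivator that drives smooth muscle genes, differed by 0.47 ± 0.25 and did not pass (edgeR adjusted p = 0.225). None of the 3 calls was made with the endothelial covariate or over low numbers only, where fewer of all genes were called as well. CNN1 did not pass the filter, and MRTFA and MRTFB had no row.

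The signalling genes around PDGFRB and NOTCH3 gave 7 higher calls and 0 lower among 18, against 7.11% and 5.35% of all genes. On the PDGF side these were the ligands PDGFC (20.1 CPM in prefix2010 and 14.9 CPM in prefix2009, log2 difference 0.43 ± 0.08) and PDGFA (0.27 ± 0.06), and the receptor PDGFRA (236 CPM in prefix2010 and 168 CPM in prefix2009, 0.49 ± 0.10). PDGFRA is known in brain as a gene of oligodendrocyte precursors and fibroblasts. Their edgeR adjusted p-values were 0.00112, 0.00432 and 0.00230. PDGFB, the endothelial ligand of PDGFRB, differed by 0.12 ± 0.05 and did not pass (edgeR adjusted p = 0.122). On the NOTCH side the target gene HEY1 rose by 0.28 ± 0.06 on the log2 scale, at 35.2 CPM in prefix2010 and 29.02 CPM in prefix2009 (edgeR adjusted p = 0.00205). HEY2, HES1 and the receptor NOTCH1 were the other calls. HEYL, a target known in smooth muscle, the ligands JAG1, JAG2 and DLL4 and the effector RBPJ did not pass. With the endothelial covariate 4 of the 18 were called, and over low numbers 3, where fewer of all genes were called as well. The list was chosen with earlier results known, so its counts cannot test for an excess.

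Against 7.11% of all genes called higher, the basement membrane list gave 10 higher calls among 12 genes, with a median log2 difference of 0.37. The list was chosen with earlier results known, so this count cannot test for an excess. Its proteins form the sheet that pericytes and endothelial cells share. HSPG2 (perlecan) averaged 34.6 CPM in prefix2010 and 21.6 CPM in prefix2009, a log2 difference of 0.68 ± 0.14 (edgeR adjusted p = 0.00184). COL4A1 averaged 108 CPM in prefix2010 and 70.0 CPM in prefix2009, a difference of 0.63 ± 0.12 (edgeR adjusted p = 0.00158). LAMC1 and COL4A2 differed by 0.37 ± 0.07 and 0.31 ± 0.07 (edgeR adjusted p = 0.00124 and 0.00609). LAMB1 and LAMA5 were the 2 that did not pass. With the endothelial covariate 3 of the 12 were called, and over low numbers 5, where fewer of all genes were called as well.

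Among 5 relatives of RGS5 and of the channel subunits, 1 was called higher and 1 lower, against 7.11% and 5.35% of all genes. ABCC8, which encodes the SUR1 subunit found in neurons, fell by 0.24 ± 0.07 on the log2 scale in prefix2010 (edgeR adjusted p = 0.0257), and KCNJ11, its pore partner Kir6.2, differed by -0.18 ± 0.07 and did not pass (edgeR adjusted p = 0.0996). Whether these differences are unlike those of ABCC9 and KCNJ8 was not tested. RGS16, a relative of RGS5, rose by 0.50 ± 0.12 (edgeR adjusted p = 0.00516). Over low numbers only, where fewer of all genes were called as well, none of the 5 genes of this list was called by edgeR.

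Lists of other cell types were counted in the same comparison, in which 12.5% of all genes were called. They too were chosen with earlier results known, so their counts cannot test for an excess. Of 12 endothelial genes 2 rose, MFSD2A (0.31 ± 0.07) and KDR (0.44 ± 0.15), with edgeR adjusted p = 0.00489 and 0.0477, and the median of the list was 0.19. Without prefix2009 replicate 1, 5 endothelial genes were called, and without prefix2010 replicate 8, 1 was. The number of all genes called also changed, from 2237 to 3870 over the 30 fits that left out 1 library. The summed endothelial level ran from 388 to 772 CPM in prefix2010 and from 408 to 586 CPM in prefix2009. Among 8 fibroblast genes edgeR called 0, with 2 at an unadjusted p under 0.05, and DESeq2 called 1. Their summed level ran from 138 to 458 CPM in prefix2010 and from 93.8 to 549 CPM in prefix2009. The collagens COL3A1 and COL1A2 had log2 differences of 0.94 and 0.84 (edgeR adjusted p = 0.0689 and 0.123). All 10 immature neuron genes tested rose, with a median log2 difference of 0.80, and 2 of 9 mature myelin genes fell. The part of these cell types in the member differences was not tested. With the endothelial level as a covariate, PDGFRB differed by 0.24 and ABCC9 by 0.54 (edgeR adjusted p = 0.0353 and 0.0147). That level comes from the same counts and itself differed between the prefixes (mean z-score 0.22 in prefix2010 and -0.31 in prefix2009). The fit therefore cannot separate an endothelial part from the prefix difference.

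**Figure D3:**
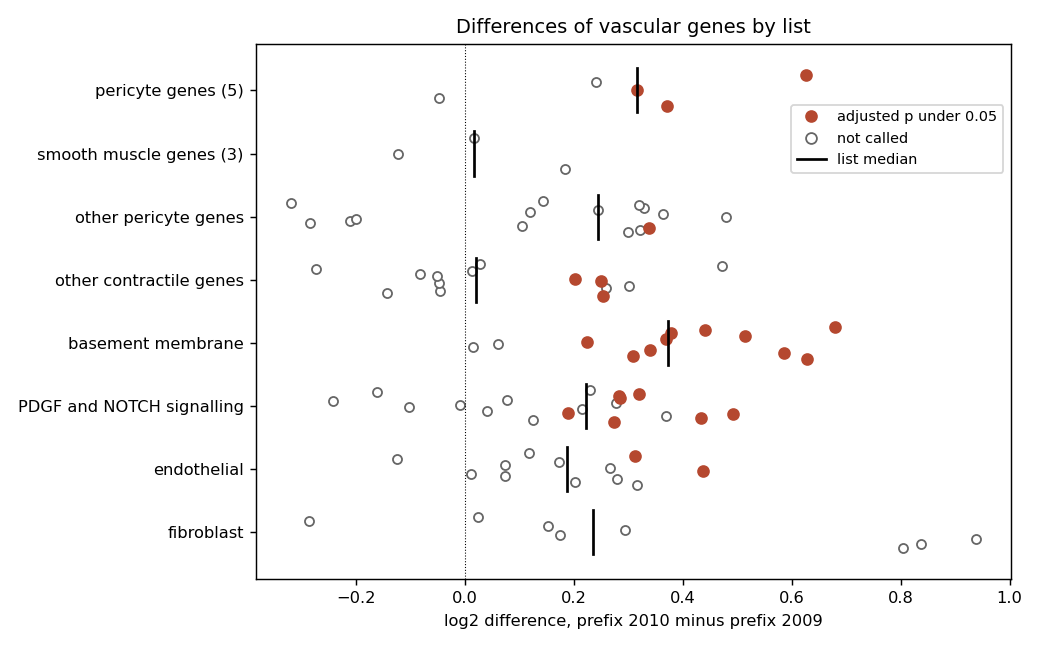
Log2 difference of prefix2010 minus prefix2009 for the 8 genes and for related gene lists, one point per gene, filled where the edgeR adjusted p was under 0.05, with the list median as a bar. The basement membrane list has 10 filled points of 12, and the 3 smooth muscle genes none, where 12.5% of all genes tested were called. The genes and lists were chosen with earlier results known.

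The level of each class was summarised per library as the mean log2 CPM of its genes. The pericyte mean was 5.17 ± 0.16 in prefix2010 and 4.87 ± 0.23 in prefix2009, while the smooth muscle mean was 3.39 ± 0.39 in prefix2010 and 3.37 ± 0.37 in prefix2009 (SD, n = 16 and n = 14). In each prefix the smooth muscle mean had the larger SD of the 2 classes. The pericyte minus smooth muscle difference had a mean of 1.77 ± 0.43, ranging from 0.88 to 2.37, in prefix2010, and a mean of 1.503 ± 0.39, ranging from 0.79 to 2.09, in prefix2009. The means differed by 0.27, less than 1 SD of either prefix. This difference follows from genes chosen with results known and was not tested.

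In 5 libraries the smooth muscle mean stood above the rest, and they came from both prefixes. Library prefix2010 replicate 8 had 24.7 CPM of ACTA2, 21.5 CPM of TAGLN and 13.8 CPM of MYH11. Library prefix2010 replicate 12 had 23.04, 17.04 and 8.999 CPM of the same genes, and prefix2010 replicate 5 had 17.5, 18.8 and 10.8 CPM. Library prefix2009 replicate 8 had 25.7, 19.2 and 13.5 CPM, and prefix2009 replicate 14 had 16.98, 21.3 and 11.6 CPM. Their pericyte means, from 4.82 to 5.32, lay inside the range of the other libraries. Markers of other tissues moved with some of these libraries. The summed fibroblast level was 458 CPM in prefix2010 replicate 8 and 549 CPM in prefix2009 replicate 8, the highest 2 of the 32 libraries, but 215, 233 and 192 CPM in prefix2010 replicates 5 and 12 and prefix2009 replicate 14. The choroid plexus list summed to 418 CPM in prefix2010 replicate 8, of which TTR (transthyretin) made 384 CPM, and to 41.6 CPM in prefix2009 replicate 8. The part of these markers in the smooth muscle levels was not tested.

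**Figure D4:**
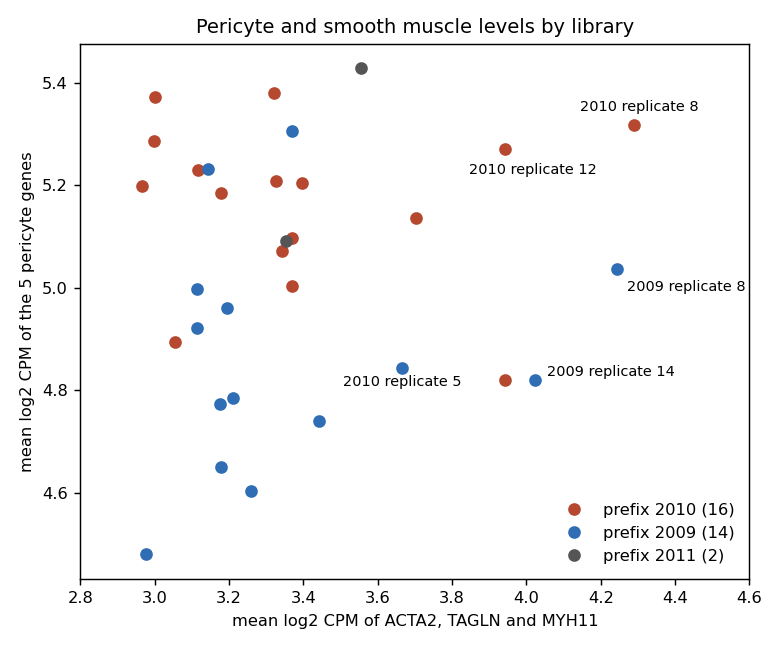
Mean log2 CPM of the 5 pericyte genes against that of ACTA2, TAGLN and MYH11, one point per library. The 5 named libraries lie to the right, with smooth muscle means from 3.94 to 4.29, at pericyte means from 4.82 to 5.32.

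The genes also differed in how much they varied. The biological coefficient of variation, an estimate of the relative spread beyond counting error, had a median of 0.174 over the 23977 genes. MYH11 had the largest of the 8, 0.429, above 92.6% of all genes and above 94.8% of the 1000 genes nearest to it in expression. ABCC9 followed with 0.306, above 96.2% of its 1000 nearest genes, and ACTA2 with 0.277. TAGLN had the smallest, 0.162. Within prefixes ABCC9 came to 0.229, while MYH11 was 0.438 and ACTA2 0.277.

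Correlations between the genes were computed across the 32 libraries. Of the 28 gene pairs, 8 passed a two-sided permutation test of Pearson's r with Benjamini-Hochberg adjustment over the 28: 6 of the 10 pericyte pairs, 2 of the 3 smooth muscle pairs and 0 of the 15 pairs between classes. The median r was 0.51 within the pericyte genes, 0.56 within the smooth muscle genes and 0.05 between the classes. In the same order the medians were 0.26, 0.67 and 0.0002 within prefix2010, where 7 of the 10 pericyte pairs were positive. Within prefix2009 they were 0.53, 0.56 and 0.18. Libraries were permuted across prefixes, so differences between the prefixes can enter r and p over all libraries. Points share library preparation and depth. By Spearman's rho 9 pairs passed, the added one being NOTCH3 with ACTA2 (rho 0.48, adjusted permutation p = 0.0186; r 0.42, adjusted permutation p = 0.0501).

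The closest pair was PDGFRB with ABCC9, with r = 0.83 and rho = 0.80 (adjusted permutation p = 9.3e-05 for r). It kept r = 0.84 without the 2 libraries farthest from the median of PDGFRB, and was 0.70 within prefix2010 and 0.62 within prefix2009. PDGFRB with NOTCH3 had r = 0.80, with 0.56 within prefix2010 and 0.80 within prefix2009. The channel subunits KCNJ8 and ABCC9 had r = 0.72, with 0.54 within prefix2010 and 0.79 within prefix2009. Some values for NOTCH3 were lower within prefix2010, a difference that was not tested: NOTCH3 with ABCC9 had r = 0.69 over all libraries but 0.26 within prefix2010 and 0.64 within prefix2009, and NOTCH3 with KCNJ8 had 0.47, 0.03 and 0.45 in the same order. Within prefixes fewer pairs passed the permutation test, 3 in prefix2010 and 2 in prefix2009, with fewer libraries in each. RGS5 was in none of the passing pairs, and its r with the other 4 pericyte genes was 0.04 to 0.13 over all libraries. Within prefix2010 these 4 values ran from -0.26 to 0.31, and within prefix2009 from 0.19 to 0.51.

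Among the contractile genes, ACTA2 with MYH11 had r = 0.67 and rho = 0.50, with 0.76 within prefix2010 and 0.61 within prefix2009 (adjusted permutation p = 0.000392 for r over all). Without the 2 farthest libraries r was 0.50 over all and -0.10 within prefix2009, so within prefix2009 the relation rested on those libraries. TAGLN with MYH11 had r = 0.56 and rho = 0.57, and 0.65 without the 2 farthest libraries (adjusted permutation p = 0.00397 for r). ACTA2 with TAGLN had r = 0.18 (adjusted permutation p = 0.529).

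**Figure D5:**
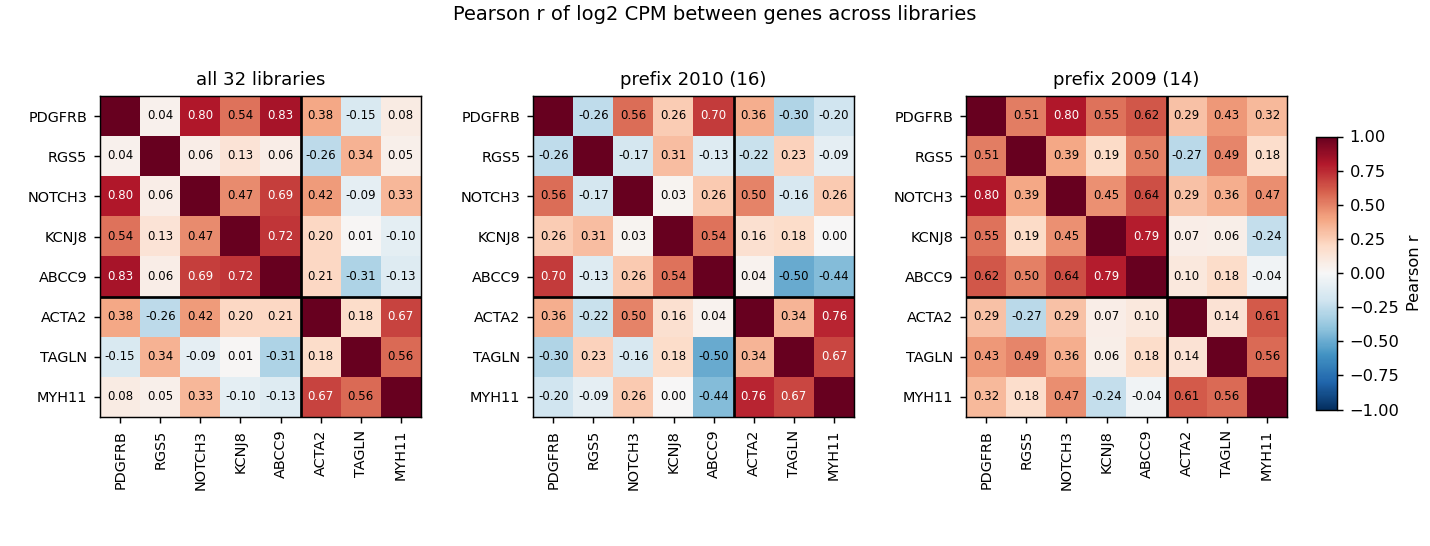
Pearson r of log2 CPM between the 8 genes across all 32 libraries, within prefix2010 and within prefix2009, with lines separating the pericyte from the smooth muscle genes. Pericyte genes other than RGS5 form a block of r from 0.47 to 0.83 over all libraries, where RGS5 has 0.04 to 0.13 with them. Within prefix2010 the r of that block run from 0.03 to 0.70. Within prefix2009 RGS5 reaches 0.51 with PDGFRB.

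Each gene was also set against the level of 4 cell type lists, in 32 relations of which 19 passed the permutation test over all libraries, 7 within prefix2010 and 5 within prefix2009. With the endothelial list, PDGFRB had r = 0.74 over all (adjusted permutation p = 8e-05), 0.56 within prefix2010 and 0.82 within prefix2009. NOTCH3, ABCC9 and KCNJ8 followed with 0.59, 0.54 and 0.50, while RGS5 had 0.34 and MYH11 0.13. Within prefix2010 PDGFRB did not pass (adjusted permutation p = 0.0978). NOTCH3, ABCC9 and KCNJ8 had 0.25, 0.10 and 0.27 there, and none of them passed either. Within prefix2009 NOTCH3, ABCC9 and KCNJ8 had 0.69, 0.71 and 0.58, and PDGFRB, NOTCH3 and ABCC9 passed. With the fibroblast list ACTA2 had the highest r, 0.74 (adjusted permutation p = 8e-05), with 0.65 within prefix2010 and 0.86 within prefix2009. Without the 2 farthest libraries that r was 0.56 over all and 0.24 within prefix2009. MYH11 had r = 0.57 with the fibroblast list and 0.32 without the 2 farthest libraries. The pericyte genes other than RGS5 passed with the fibroblast list as well over all libraries, but none of them within a prefix. PDGFRB had r = 0.56 (adjusted permutation p = 0.00252) and 0.58 without the 2 farthest libraries, NOTCH3 had 0.47, and KCNJ8 and ABCC9 had 0.43 each. In the same order these genes had 0.34, 0.20, 0.29 and 0.05 within prefix2010, and 0.43, 0.31, 0.27 and 0.22 within prefix2009. TAGLN (0.33) and RGS5 (-0.04) did not pass over all libraries. Within prefix2010 TAGLN and MYH11 each had r = 0.63 with the fibroblast list and passed, as did ACTA2 (adjusted permutation p = 0.0442 for each). Without the 2 farthest libraries of prefix2010, TAGLN had 0.33 and MYH11 0.29.

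With the immature neuron list, PDGFRB had r = 0.79 and ABCC9 r = 0.76 (adjusted permutation p = 8e-05 for each), and NOTCH3, KCNJ8 and ACTA2 also passed with r = 0.62, 0.49 and 0.47 (adjusted permutation p = 0.000704, 0.0125 and 0.0152). ACTA2 had 0.78 within prefix2009 (adjusted permutation p = 0.0396), but 0.39 there without the 2 farthest libraries. Its rho of 0.56 within prefix2009 did not pass (adjusted permutation p = 0.207). RGS5 had r = -0.32, TAGLN r = -0.38 and MYH11 r = -0.01, and none of these passed (adjusted permutation p = 0.105, 0.0556 and 0.961). PDGFRB with that list had 0.82 within prefix2010 but 0.44 within prefix2009, and -0.30 there without the 2 farthest libraries, so in prefix2009 the relation rested on those libraries. With the mature myelin list RGS5 had r = 0.59 and rho = 0.58 (adjusted permutation p = 0.00208 for r). RGS5 had 0.66 within prefix2010 and 0.54 within prefix2009, where it did not pass (adjusted permutation p = 0.132). ACTA2 and NOTCH3 had r = -0.43 and -0.38 over all libraries and passed (adjusted permutation p = 0.0251 and 0.0485). Neither passed within a prefix. PDGFRB had r = -0.47 with the myelin list over all libraries, -0.64 within prefix2010 and 0.15 within prefix2009. Its rho of -0.36 did not pass (adjusted permutation p = 0.0714).

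Among 14049 genes with a mean of at least 1 CPM, the 5 most like the pericyte mean across the 32 libraries were LIMD1 (r = 0.90), NKD1, LAMA4, PCDH15 and ADAMTS9 (r = 0.88 each). LAMA4 is a laminin chain of vessels and also a member of the basement membrane list. ADAMTS9 had 0.90 within prefix2010 and 0.77 within prefix2009. The 5 most like the smooth muscle mean were OGN (r = 0.70), TINAGL1 (0.69), PCOLCE (0.65), SLC13A4 (0.63) and RERGL (0.62). OGN belongs to the fibroblast list. For single genes, the nearest profile was that of LAMA2 for PDGFRB (r = 0.88), PPFIBP2 for RGS5 (0.77), MSI1 for NOTCH3 (0.87) and SLC40A1 for KCNJ8 (0.79). It was GNB4 for ABCC9 (0.91), the collagen gene COL1A2 for ACTA2 (0.79), ITGB2 for TAGLN (0.74) and SLC6A13, of the fibroblast list, for MYH11 (0.61). These are the highest of many values and are given as a description without a p.

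Reads of close relatives can affect some of these counts. The actin genes ACTA1, ACTC1 and ACTG2 averaged 1.00, 3.16 and 0.592 CPM over the 32 libraries. Relatives of MYH11 and TAGLN had higher levels than these 2 genes. MYH9 and MYH10 averaged 379 and 419 CPM against 5.82 CPM for MYH11. TAGLN2 and TAGLN3 averaged 23.6 and 133 CPM against 16.5 CPM for TAGLN. The reference gene table lists a coding gene without a symbol that overlaps ACTA2. MYH11 lies next to NDE1 in that table, with no overlap listed, and the NDE1 row averaged 6.51 CPM. How the counting treated strand and shared reads is not given in the sources used here, so ACTA2 and MYH11 are the less certain of the 8.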

How the data were processed

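Total RNA of 32 hippocampus libraries was extracted with PerfectPure, depleted of ribosomal RNA with Ribo-Zero Gold and made into stranded TruSeq libraries, per the labels' protocols. The deposited table holds raw counts of reads per gene. STAR and HTSeq were used, per the submitters' processing notes. The strand setting, like the versions, the genome build and the annotation, is not given in the sources used here. Of 33999 rows in the table, 5 hold reads that fell outside genes, and these were left out: 57.0% of reads lay in no feature and 8.90% aligned to several places. A count of 0 allows up to 3 counts (0.152 to 0.321 CPM, counting error alone). All 496 library pairs differed by more than sampling noise, with a chi-square of 3.91 or more per degree of freedom.

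Counts were scaled by trimmed means of M-values, filtered by filterByExpr (minimum count 10, minimum total 15, minimum proportion 0.7) and tested with edgeR 4.0.16 under R 4.3.3. The prefix fit held all 32 libraries in 3 groups, and the number fit the 16 of prefix2010. Log2 CPM used a prior count of 2. Intervals are 95%, the estimate plus and minus its SE times the normal quantile, and are not adjusted over genes. Correlations used 100000 permutations, with a smallest possible p of 1e-05 before adjustment. The tests were tried on simulated counts. Alternatives were DESeq2 1.42.0, other scalings, no filter, covariates, subsets and leaving out each library. Counts within lists under alternatives were added after the data were seen.

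The 8 genes and the lists were chosen with earlier results of these data known. Of 154 list genes, 149 had a row. From each list, counts and up to 4 genes with the smallest p are given, and others named were chosen after their values were seen. Names of neighbouring genes come from the reference gene table of assembly mChlSab1.0.hap1, with no coordinates.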

Additional observations from a re-analysis of the deposited data

How the results depend on the processing

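No paired analysis was possible because the titles carry no replicate numbers shared between prefixes. PDGFRB, NOTCH3 and ABCC9 passed in all 30 fits that left out 1 library, with log2 differences of 0.33 to 0.40, 0.28 to 0.34 and 0.58 to 0.67. They also passed with DESeq2, with library totals, with DESeq2's size factors, without a filter, with the no-feature share as a covariate, without prefix2011 and over low title numbers only. NOTCH3 alone of these 3 was lost with the endothelial covariate (0.24). RGS5 ranged from -0.080 to 0.032 over the 30 fits, changing sign without prefix2009 replicate 1 (0.032). MYH11 ranged from -0.12 to 0.17, and was -0.069 with the endothelial covariate and -0.095 over low numbers only; its adjusted p was at least 0.675 over the 30 fits. The 2987 genes called between the prefixes became 1088 with the endothelial covariate and 1162 over low numbers, which uses fewer libraries, and 2237 to 3870 when 1 library was left out. The cause of the change with the endothelial covariate was not tested.

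Within prefix2010, the 0 genes called became 194 with DESeq2, 7 with the endothelial covariate and 0 to 21 when 1 library was left out, with 21 without prefix2010 replicate 12. With the no-feature share as a covariate the sign turned for PDGFRB (0.064), KCNJ8 (0.013) and ABCC9 (0.063). Over the fits that left out 1 library, KCNJ8 ranged from -0.083 to 0.032, MYH11 from -0.059 to 0.35 and ACTA2 from -0.25 to 0.055. Of the gene pairs, 3 passed within prefix2010, 2 within prefix2009 and 8 over all libraries. Of the relations with lists, 7 passed within prefix2010, 5 within prefix2009 and 19 over all. The cause was not tested. Each prefix has fewer libraries, and the median r of the pericyte pairs was 0.26 within prefix2010, 0.53 within prefix2009 and 0.51 over all. Depth limits KCNJ8 and MYH11 most, with as few as 38 and 46 counts in a library.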

Other observations

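The TGF-beta and angiopoietin genes, which pass signals between endothelial and mural cells, gave 1 higher call and 0 lower among 12 in prefix2010 against prefix2009, a share near the 7.11% of all genes called higher. ACVRL1, an endothelial receptor whose mutation in humans causes hereditary haemorrhagic telangiectasia, rose by 0.35 ± 0.11 on the log2 scale (edgeR adjusted p = 0.0279). The pericyte ligand ANGPT1 differed by -0.02 ± 0.08 and its endothelial receptor TEK by 0.10 ± 0.07 (edgeR adjusted p = 0.928 and 0.364). No gene of this list was called with the endothelial covariate or over low title numbers, where fewer of all genes were called as well.

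Some cytoskeletal relatives of the contractile genes were called, while others and the 3 contractile genes were not. TAGLN2, a transgelin expressed outside smooth muscle, rose by 0.38 ± 0.12 on the log2 scale, and the cytoplasmic actins ACTG1 and ACTB by 0.28 ± 0.06 and 0.18 ± 0.05 (edgeR adjusted p = 0.0282, 0.00456 and 0.0252). Whether these differences exceed those of TAGLN and ACTA2 was not tested. The non-muscle myosins MYH9 and MYH10 differed by -0.25 ± 0.09 and -0.04 ± 0.04 (edgeR adjusted p = 0.0604 and 0.498). TAGLN3, ACTA1, ACTC1 and ACTG2 differed by -0.20, -0.18, 0.03 and 0.26. They did not pass either (edgeR adjusted p = 0.254, 0.593, 0.936 and 0.588). These genes belong to a list of 16 relatives that also holds receptors, channel subunits and RGS4. It had 5 higher calls and 1 lower, against 7.11% and 5.35% of all genes. Among the calls, PDGFRA and NOTCH1 (higher) and ABCC8 (lower) are not cytoskeletal.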
